A study of Rattus norvegicus with 4 samples.

Results

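The genes described here are 10 precursors of small signalling peptides that are known from interneurons and from the opioid system of the brain: Npy, Sst, Vip, Cort, Penk, Pdyn, Nts, Adcyap1, Cartpt and Gal. They were taken by name from the probes of a rat expression array whose RefSeq accession maps to one of these symbols, and all 10 were on the array, out of 15443 named genes. A gene with several probes was read from its brightest one. The array was hybridised with RNA of the cerebellum and of the prefrontal cortex of male rats.

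Of 106 untreated rats scored by how long they stayed immobile in a forced swimming test, some with depressive-like behaviour and some with average behaviour were picked, and the average rats served as controls. All groups had therefore swum, and 50 of the rats were killed 1 week later. The 4 groups were cerebellum of controls, cerebellum of depressive rats, and the prefrontal cortex of each; a group was a single array of RNA pooled from 4 rats, so the spread between rats was not measured. Strain and age are not given in the sources used here, nor is it stated whether both tissues came from the same rats. A state here is a rat's rank in 1 behavioural test and no drug, lesion or allele was involved.

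Neuropeptides are made as long precursors that are cut in the secretory pathway, packed into dense-core vesicles and released to act on G protein-coupled receptors. In the cerebral cortex, neuropeptide Y, somatostatin, cortistatin and vasoactive intestinal peptide are classic products of GABA-releasing interneurons, whereas the cerebellar cortex has other inhibitory neurons, such as Golgi, stellate, basket and Purkinje cells. Enkephalins and dynorphins, from Penk and Pdyn, are the endogenous ligands of the opioid receptors. Several of these genes, Sst first among them, are textbook targets of cyclic AMP signalling through the factor CREB, which binds the palindrome TGACGTCA and, more weakly, its first 5 bases.

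Those letters were looked for on both strands in the promoter windows that RefSeq gives for build GRCr8, from 250 bases before to 50 bases after each gene's start. A window was found for 9 of the 10 genes, all but Penk. TGACGTCA lay in 2 of the 9, those of Sst and Cartpt, against 1.83% of 33469 promoters of that length. TGACG or its reverse complement CGTCA, which every TGACGTCA also contains, lay in 6 of 9 against 21.2% of all promoters. The stretches around the matches are shown because these genes are known for cyclic AMP control, in the direction of transcription, with the match in capitals; a match is a string of letters and no measured binding.
Sst: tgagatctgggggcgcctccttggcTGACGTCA
Cartpt: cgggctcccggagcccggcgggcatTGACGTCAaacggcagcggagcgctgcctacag
Vip: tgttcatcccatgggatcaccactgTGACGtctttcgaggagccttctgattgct
Cort: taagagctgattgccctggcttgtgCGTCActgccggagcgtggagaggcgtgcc
Nts: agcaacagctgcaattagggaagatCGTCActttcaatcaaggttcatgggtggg
Gal: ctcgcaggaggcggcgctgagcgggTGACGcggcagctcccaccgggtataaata

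The Sst stretch is chr11:90461523-90461555 on the plus strand and its match begins 3 bases after the annotated start. That of Cartpt is chr2:32991345-32991402 on the minus strand, with the match 142 bases before the start. For Vip the stretch is chr1:44470358-44470412 (plus strand, 97 bases before), and for Cort it is chr5:164845200-164845254 (minus strand, 105 bases before). The Nts stretch is chr7:39461030-39461084 (minus strand, 171 bases before) and that of Gal is chr1:210084606-210084660 (minus strand, 63 bases before). The windows of Npy, Pdyn and Adcyap1 did not hold these letters.

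All values below start from the scanner's processed signal, which is in arbitrary units after background subtraction. Signals of different arrays were brought to one scale by subtracting, in log2, the 75th percentile of each array's spots, which was 4009 and 4365 in control and depressive cerebellum and 3119 and 3274 in control and depressive prefrontal cortex. Differences and folds are on that scale, while printed signals are unscaled. A standard error (SE) beside a difference between 2 arrays comes from repeated spots. The spread of such spots was pooled over probes of like brightness on an array, in 20 bins. It was then scaled to the number of spots of the probe, so it is not the probe's own spread. This SE covers the error between spots of an array, not the spread between rats. Levels of different genes are not compared, because probes differ in brightness. Of 30367 probes, between 22201 and 23759 were well above background on each array. The cerebellum arrays carried the tissue they were labelled with, since 16 of 16 cerebellum markers were at least 2-fold higher there in each state, and 11 of 14 markers of the cerebral cortex were at least 2-fold lower.

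Which files hold which array had to be settled first. The file linked to the control prefrontal cortex sample matched the deposited value-table column of depressive cerebellum at r = 0.999962, and the file linked to depressive cerebellum matched the column of control prefrontal cortex at r = 0.999987, over 17823 and 18160 probes. Against their own columns both stood at only 0.907 and 0.927. The value table was followed, which gives the same grouping as the file names. The free-text description of both depressive samples names the other tissue than their titles do, and the tissue markers above went with the titles. With the files as linked, the tissue and state comparisons below would trade places, and no member would differ by tissue at 2-fold.

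**Figure D1:**
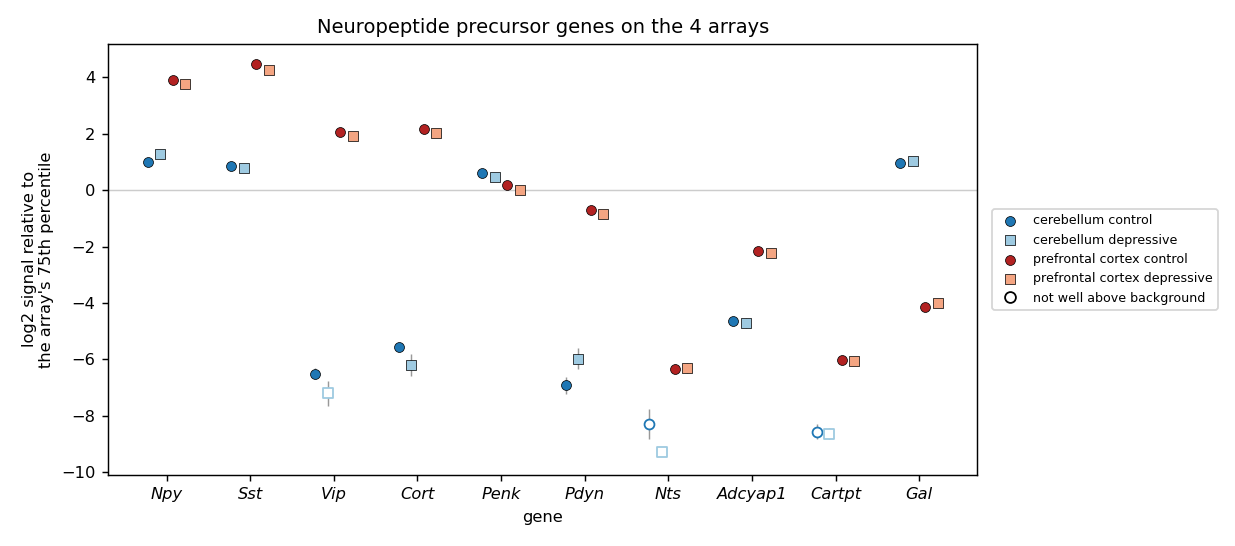
Level of each of the 10 peptide genes on the 4 arrays, as log2 signal relative to the array's 75th percentile (vertical axis); each point is 1 pool of 4 rats, bars are 1 standard error from repeated spots, and open points are not well above background. Points of a tissue lie close together for most genes, 8 genes are higher in both prefrontal cortex pools, and Gal and Penk are higher in both cerebellum pools.

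The first question was how the peptide genes differ between the tissues. In both states 8 of the 10 were at least 2-fold lower in cerebellum than in prefrontal cortex, 1 (Gal) was at least 2-fold higher, and Penk lay between. Over all genes measured, 14.0% were at least 2-fold lower and 9.91% at least 2-fold higher in the control pools, and 14.5% and 9.12% in the depressive pools. The median difference of the 10 genes was -2.71 in control and -2.47 in depressive pools on the log2 scale, beside -0.01 and -0.06 over all genes. In bulk RNA, fewer cells that make a peptide and less RNA per cell cannot be told apart.

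Among the interneuron peptides, Vip, the mark of interneurons that mostly inhibit other interneurons, differed most. Its signal was 43.9 in control and 29.5 in depressive cerebellum against 12906 and 12499 in control and depressive prefrontal cortex. The depressive cerebellum signal was not well above background. Vip was 378-fold lower in cerebellum in the control pools (log2 difference -8.56, SE 0.19) and 566-fold lower in the depressive pools (-9.14, SE 0.43). The depressive value is a bound. A bound sets the brighter array against the higher of the probe's own signal and the dimmest probe above background. Where the probe's own signal was the higher, as here, the bound carries its spot error and is no strict minimum. It ranked 2 among the 6181 genes lower in control cerebellum that were well above background on both control arrays.

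Cort encodes cortistatin, a close relative of somatostatin that binds the same receptors. The Cort signal was 83.9 and 59.1 in control and depressive cerebellum and 14199 and 13227 in control and depressive prefrontal cortex. It was 218-fold lower in cerebellum in control pools (log2 difference -7.77, SE 0.12) and 298-fold lower in depressive pools (-8.22, SE 0.38). Its cerebellar signal was thus under 1% of the cortical one, at 0.459% and 0.335%, as was that of Vip at 0.265% in control pools.

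Sst, the precursor of somatostatin and the product of dendrite-targeting cortical interneurons, kept a clear signal in cerebellum. It read 7257 and 7620 in control and depressive cerebellum and 68768 and 63453 in the matching prefrontal cortex pools. The difference was 12.2-fold in control pools (log2 -3.61, SE 0.04) and 11.1-fold in depressive pools (-3.47, SE 0.06).

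Npy, which encodes neuropeptide Y, showed the smallest gap of these interneuron peptides. Its signals were 8067 and 10714 in control and depressive cerebellum and 46504 and 44140.0 in prefrontal cortex. That is 7.41-fold lower in cerebellum in control pools (log2 -2.89, SE 0.02) and 5.49-fold lower in depressive pools (-2.46, SE 0.02). Npy was read on a probe with 10 spots, and its other probe gave -2.76 and -2.44.

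The opioid precursors went opposite ways. Pdyn, the source of the dynorphins that act on the kappa receptor, read 33.2 and 69.2 in control and depressive cerebellum and 1918 and 1816 in prefrontal cortex. It was 74.3-fold lower in cerebellum in control pools (log2 -6.22, SE 0.30) and 35.0-fold lower in depressive pools (-5.13, SE 0.38). Penk, the source of the enkephalins, read 6081 and 6075 in control and depressive cerebellum and 3584 and 3305 in prefrontal cortex. After scaling it was 1.32-fold higher in cerebellum in control pools (log2 0.40, SE 0.02) and 1.38-fold higher in depressive pools (0.46, SE 0.03). Penk in cerebellum is known from Golgi cells. Markers of striatum, a rich source of both precursors next to the frontal slices, were measured beside them. Of the 12 striatal genes on the array, 10 were well above background in each prefrontal cortex pool. In control and depressive cerebellum 10 and 9 of them were. The summed level of the striatal genes relative to the 75th percentile was at most 10.4 in cerebellum and 15.8 to 16.4 in prefrontal cortex. Their part in the opioid values was not tested.

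Gal encodes galanin, a peptide known from the locus coeruleus and hypothalamus, and was the gene with the reverse pattern. Its signal was 7888 and 8913 in control and depressive cerebellum but 177.5 and 203.6 in prefrontal cortex. Gal was 34.6-fold higher in cerebellum in control pools (log2 5.11, SE 0.05) and 32.8-fold higher in depressive pools (5.04, SE 0.04), and its other probe gave 5.25 and 5.09. It ranked 33 among the 5861 genes higher in control cerebellum that were well above background on both control arrays. Dbh and Phox2a, defining genes of noradrenergic neurons that were picked after their values were seen, were not well above background on either cerebellum array, with signals of 6.5 and 9.1 for Dbh and 6.3 and 7.1 for Phox2a. In prefrontal cortex Dbh was well above background in both pools, with signals of 59.4 and 49.6. Of the 13 hindbrain markers on the array, 7 and 5 were well above background in control and depressive cerebellum. In control and depressive prefrontal cortex 7 and 8 were. Slc6a5, the glycine transporter that cerebellar Golgi cells also express, was 13.5-fold higher in control cerebellum. The noradrenaline transporter Slc6a2, also picked after its values were seen, read 219.6 and 266.6 in cerebellum and 181.2 and 184.4 in prefrontal cortex. The part of these hindbrain and noradrenergic genes in the Gal values was not tested.

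The remaining peptides were dim on these arrays. Adcyap1, the precursor of PACAP, a relative of VIP, read 160.9 and 167.0 in control and depressive cerebellum and 707.0 and 703.4 in prefrontal cortex. It was 5.65-fold lower in cerebellum in control pools (log2 -2.50, SE 0.13) and 5.61-fold lower in depressive pools (-2.49, SE 0.18). Nts, the precursor of neurotensin, read 12.8 and 6.9 in cerebellum, neither well above background, and 38.6 and 41.3 in prefrontal cortex. Cartpt, the precursor of the CART peptides, read 10.6 and 10.9 in cerebellum, again not above background, and 47.3 and 49.5 in prefrontal cortex. For both genes only bounds could be given, and those of the control pools rest on the probe's own undetected signal. Nts was 3.89-fold lower in control and at least 3.62-fold lower in depressive cerebellum. Cartpt was 5.75-fold lower in control and at least 4.34-fold lower in depressive cerebellum.

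The size of the largest gaps depended on how background was treated. With the normexp correction, which adds an offset and so shrinks the differences of dim probes, Vip stood at -7.10 and -7.27, Cort at -6.81 and -6.88 and Pdyn at -4.64 and -4.16 in control and depressive pools, and Nts (-0.72 and -0.87) and Cartpt (-0.91 and -0.87) were under 2-fold.

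**Figure D2:**
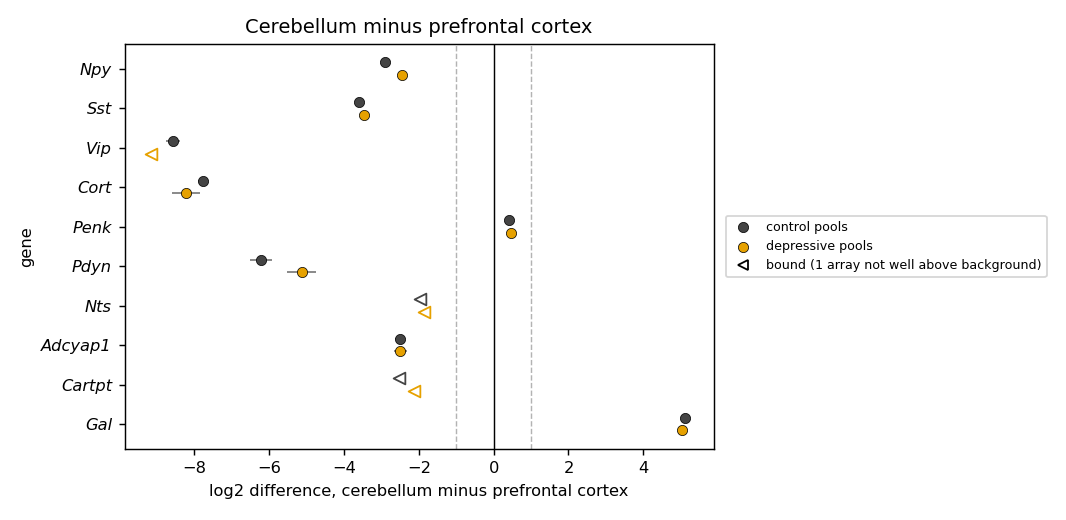
Difference between tissues for each of the 10 genes (horizontal axis, log2 of cerebellum minus prefrontal cortex) in control and in depressive pools; bars are 1 standard error from repeated spots arrowheads are bounds and dashed lines mark 2-fold. Vip, Cort and Pdyn are lower in cerebellum by more than 5 log2 units in both states, and Gal is higher by 5.11 and 5.04.

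A linear model with terms for tissue and state (limma, 1 residual degree of freedom, Benjamini-Hochberg adjustment over the 11623 genes that each of the 4 arrays measured well above background) could be fitted for 7 of the 10 genes, all but Vip, Nts and Cartpt. All 7 passed an adjusted p of 0.05 for tissue, 5 lower and 2 higher in cerebellum, but so did 72.5% of all genes fitted (37.8% lower and 34.7% higher), so that the count is no result about these peptides. The fitted tissue differences were -7.99 (SE 0.13, adjusted p = 0.000214 by limma) for Cort and 5.07 (SE 0.05, adjusted p = 0.000175) for Gal. Penk, at 0.43 (SE 0.05), had an adjusted p of 0.00531 by limma, and this was the weakest of the 7 with a range of 0.00101 to 0.0478 over 13 alternatives. In this fit the error is what remains between 4 pools once the tissue and state terms are taken out, drawn by limma toward a value shared by all genes. With 1 residual degree of freedom, what remains is how far the state difference departs between tissues, not a spread between replicate pools.

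Receptors for these peptides were mostly lower in cerebellum as well, with a few exceptions. Of 20 receptor genes, 18 could be compared between tissues: 10 were at least 2-fold lower in cerebellum and 1 was at least 2-fold higher, in each state, and their median difference was -1.40 in control and -1.23 in depressive pools. In the limma fit 10 of 13 receptors were lower, 2 were higher and 1 did not pass, beside 37.8% of all genes lower and 34.7% higher. The list was drawn up from the members' known receptors.

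For neuropeptide Y, Npy1r was 34.2-fold lower in control cerebellum (log2 -5.09) with signals of 48.3 and 69.2 against 1282 and 1413 in prefrontal cortex. Npy5r was 17.2-fold lower in control cerebellum (-4.11), and Npy2r was not well above background on any array. Both measured receptors of neuropeptide Y were therefore much lower in cerebellum, where Npy itself was lower by a smaller factor.

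The somatostatin receptors, which cortistatin also uses, split. Sstr1 (-3.91 and -3.69), Sstr2 (-2.17 and -2.26) and Sstr4 (-5.30 in control pools) were lower in cerebellum. In depressive pools Sstr4 was 67.9-fold lower, on a cerebellar signal not well above background. Sstr3, a receptor known from neuronal cilia, was 4.37-fold and 4.43-fold higher there, with signals of 15795 and 15046 in cerebellum and 2810 and 2547 in prefrontal cortex. Its fitted difference was 2.14 (SE 0.05, adjusted p = 0.000269 by limma). Sstr5 was dim on all arrays and differed by -0.42 and -0.41.

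Vipr1, a receptor shared by VIP and PACAP, was 19.5-fold and 20.8-fold lower in cerebellum. Its relative Vipr2 differed less, by -0.81 and -0.95, and the PACAP receptor Adcyap1r1 by -0.20 and -0.29. The opioid receptors gave little signal: Oprk1, the dynorphin receptor, was not well above background on any array, Oprm1 read between 21.5 and 33.8, and Oprd1, the enkephalin receptor, differed by 0.12 and -0.08 with an adjusted p of 0.830 in the limma fit. For neurotensin, Ntsr2 was 2.85-fold and 2.62-fold lower in cerebellum, the sorting receptor Sort1 3.77-fold and 4.01-fold, and the dim Ntsr1 2.43-fold and 2.88-fold.

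Of galanin's receptors, Galr2 alone was well above background on all 4 arrays. It was higher in cerebellum by 0.52 and 0.33 (fitted 0.42, SE 0.07, adjusted p = 0.0120 by limma). Galr1 was at least 3.36-fold and 1.68-fold lower in cerebellum, where it was not well above background, and Galr3 was above background on only 1 array of each tissue.

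**Figure D3:**
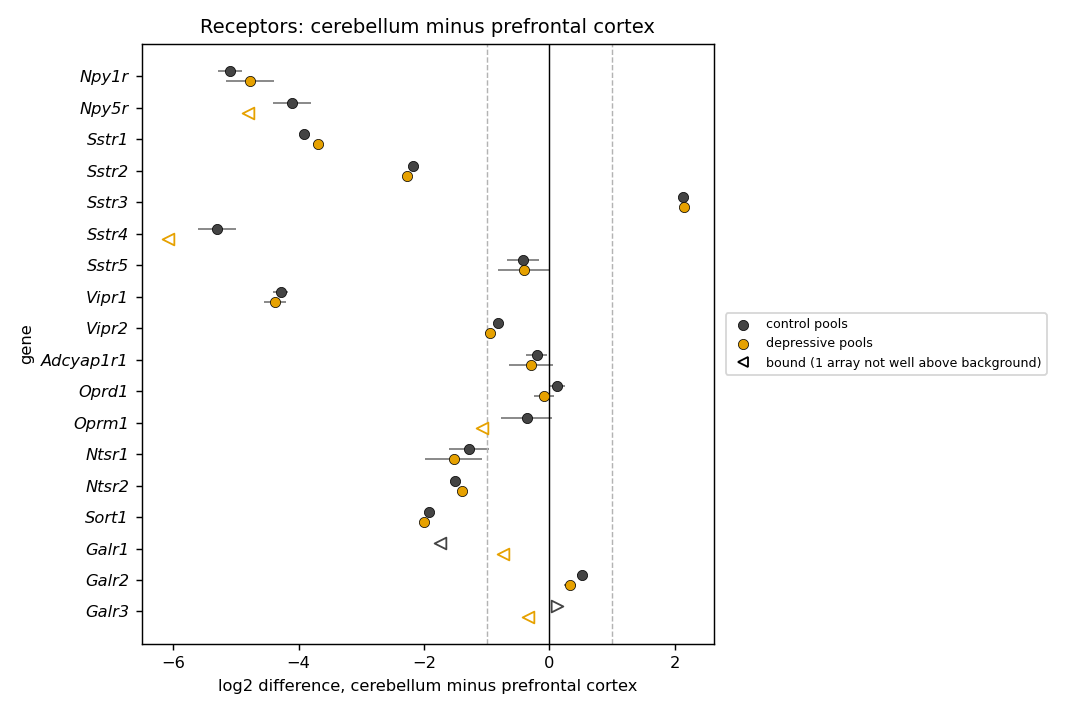
Difference between tissues for the peptides' receptors (horizontal axis, log2 of cerebellum minus prefrontal cortex) in control and depressive pools; bars are 1 standard error from repeated spots arrowheads are bounds and dashed lines mark 2-fold. Sstr3 stands at 2.13 and 2.15 while Npy1r, Sstr4 and Vipr1 lie below -4 in both states.

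The machinery that makes and stores the peptides differed less between the tissues. Of 13 genes for prohormone cutting and dense-core vesicles, 6 in control and 5 in depressive pools were at least 2-fold lower in cerebellum and none was 2-fold higher; the medians were -0.63 and -0.58. The limma fit called all 13, with 11 lower and 2 (Furin and Chgb) higher, beside 72.5% of all genes. The largest gaps were in Pam, which amidates the ends of peptides such as neuropeptide Y and VIP, at -3.30 in both states, in Vgf, a granin, at -3.18 and -3.03, and in the convertase Pcsk1, at -2.60 and -2.81. Pcsk2, the second neuronal convertase, was at -1.83 and -1.98, and the carboxypeptidase Cpe at -1.21 and -1.24. Chgb, a vesicle granin, was 1.46-fold and 1.44-fold higher in cerebellum.

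Interneuron markers, a list that mixes general genes of inhibitory neurons with those of cortical classes, lay on both sides. Of 20 such markers measured, 8 and 9 were at least 2-fold lower in cerebellum and 7 and 6 were at least 2-fold higher, in control and depressive pools, with medians of 0.24 and 0.03. Calb2, which encodes calretinin and marks cerebellar granule cells as well as cortical interneurons, was 45.2-fold and 62.5-fold higher in cerebellum. Crhbp, Npas1 and Htr3a, which mark cortical interneuron classes, were 98.4-fold, 20.7-fold and 18.9-fold lower in control cerebellum, beside Vip, Cort and Sst. In the fit, 8 markers were higher, 7 lower and 2 did not pass, beside 34.7% of all genes higher and 37.8% lower.

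The other question was how the depressive pools differ from the control pools. None of the 8 genes measured in cerebellum and none of the 10 in prefrontal cortex reached 2-fold, while 1.10% and 0.787% of all genes did. The limma fit called 0 of the 7 fitted genes for state and 0.00% of all genes; at an unadjusted p under 0.05 it gave 2 of 7, Cort and Penk, beside 7.49% of all genes. Their fitted state differences were -0.40 (SE 0.13) for Cort and -0.16 (SE 0.05) for Penk, both with an adjusted p of 0.656 by limma. Over all genes, 95% of the state differences lay between -0.38 and 0.39 in cerebellum and between -0.31 and 0.37 in prefrontal cortex. With 1 pool of 4 rats per group, an average difference between states and a difference between these pools cannot be told apart.

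**Figure D4:**
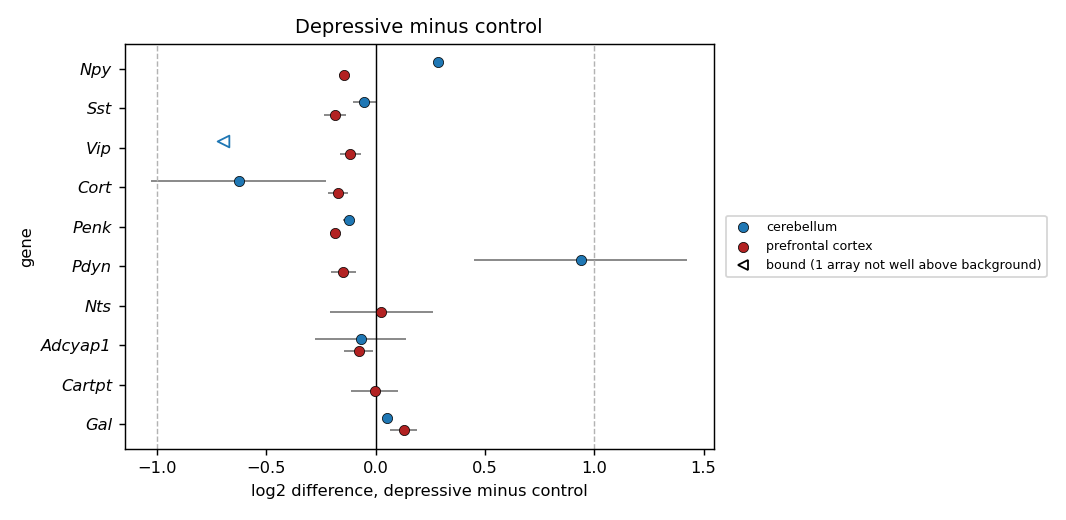
Difference between depressive and control pools for each of the 10 genes (horizontal axis, log2) within cerebellum and within prefrontal cortex; bars are 1 standard error from repeated spots arrowheads are bounds and dashed lines mark 2-fold. The cortical differences lie between -0.19 and 0.13, while in cerebellum Npy stands at 0.29 and the dim genes Pdyn, Vip and Cort lie further from 0.

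In prefrontal cortex, where all 10 were above background, the depressive pool was slightly lower for 8 of them and the median difference was -0.13, beside -0.005 over all genes. Lowest were Penk (-0.19, SE 0.02), Sst (-0.19, SE 0.05), Cort (-0.17, SE 0.05), Npy (-0.15, SE 0.02), Pdyn (-0.15, SE 0.06) and Vip (-0.12, SE 0.05). These errors cover repeated spots only and do not say whether pools of rats differ. All of these genes lay within the range that holds 95% of genes. Gal was the highest of the 10 at 0.13 (SE 0.06), and Adcyap1, Nts and Cartpt differed by less than 0.1. Of 12 cerebellum markers well above background in both prefrontal cortex pools, 9 were lower in the depressive pool and 3 higher. With bounds included, 11 of 14 measured markers were lower, 3 of them at least 2-fold and the lowest at -1.61. Over all genes measured in prefrontal cortex, bounds included, 6458 of 12572 were lower. The 12 markers ranged from -1.29 to 0.24 with a median of -0.14, and Pcp2 and Gabra6 stood at -1.23 and -1.29. Any part of cerebellar tissue in the cortical Gal value was not tested.

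In cerebellum the bright genes differed little, with Sst at -0.05 (SE 0.05), Gal at 0.05 (SE 0.02) and Penk at -0.12 (SE 0.02). Npy was the exception among them, 1.22-fold higher in the depressive pool (log2 0.29, SE 0.02), and its other probe gave 0.20. Npy too lay within the range of 95% of genes.

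The dim genes Pdyn, Cort and Vip lay outside the range that held 95% of genes. Pdyn was 1.91-fold higher in depressive cerebellum (log2 0.94, SE 0.49), on signals of 33.2 and 69.2. This value was 1.05 after quantile normalization, just past 2-fold, and 0.31 after the normexp correction. Cort was lower by -0.63 (SE 0.40). Vip was 1.62-fold lower (-0.70, SE 0.47), read from a depressive signal not well above background, so the value is no firm minimum. The normexp values of Cort and Vip were -0.25 and -0.27. Adcyap1 differed by -0.07 (SE 0.21), and Nts and Cartpt had no measured level in cerebellum.

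Some markers of cortex tissue were also lower in the depressive cerebellum pool, though the limma fit called none of the 8 fitted for state. Nrgn and Crym, which mark forebrain neurons, were both lower by -0.68 in the depressive cerebellum pool, and the cortical peptide Cck was lower by -0.91. Of the 8 cortex markers well above background on both cerebellum arrays, 5 were lower and 3 higher. With bounds included, 7 of 10 measured markers were lower, 1 of them at least 2-fold, beside 7726 lower of 12680 genes measured. These 8 markers ranged from -0.68 to 0.17 with a median of -0.06. Their list's summed level relative to the 75th percentile was 6.03 in control and 5.16 in depressive cerebellum, against 83.3 and 79.3 in prefrontal cortex, and Fezf2, Tbr1 and Emx2 were not well above background in either cerebellum pool. Nrgn stood at 0.299% and 0.191% of its cortical signal in control and depressive cerebellum, while Pdyn stood at 1.35% and 2.86%. The part of these markers in the Vip and Cort values was not tested.

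**Figure D5:**
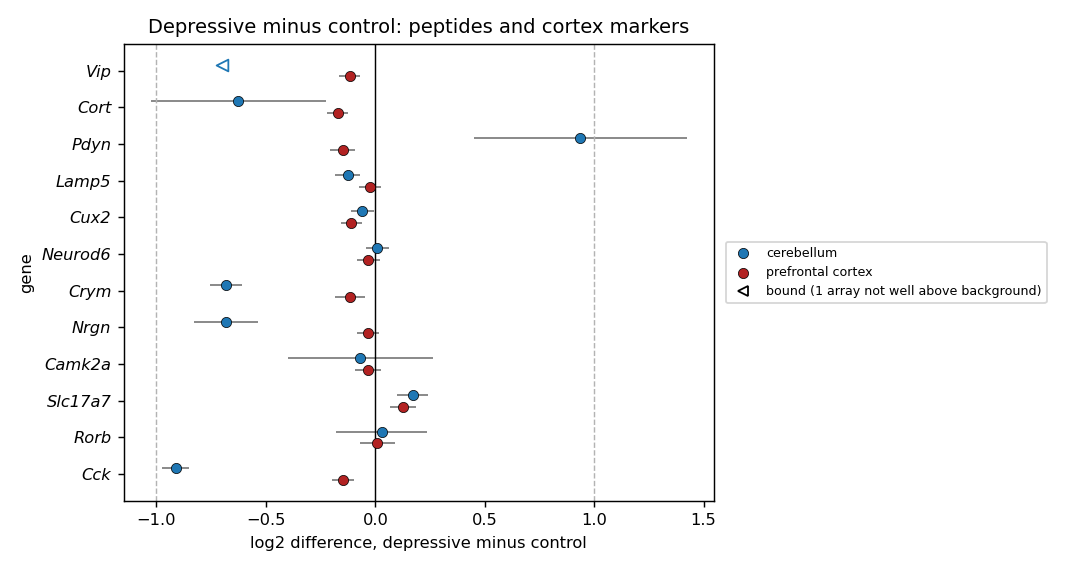
Difference between depressive and control pools (horizontal axis, log2) for Vip, Cort and Pdyn beside Cck and the markers of cerebral cortex that were well above background on both cerebellum arrays; bars are 1 standard error from repeated spots arrowheads are bounds and dashed lines mark 2-fold. In cerebellum Vip, Cort, Cck, Crym and Nrgn lie below -0.6 while Pdyn lies at 0.94 and the other markers near 0.

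Red cell and pituitary genes were measured in the same pools, and the limma fit called none of the 6 and 4 genes fitted for state. At an unadjusted p under 0.05 it gave 4 red cell genes and 0 pituitary genes, beside 7.49% of all genes. The summed level of 6 red cell genes was 2.81 and 12.3 in control and depressive cerebellum and 5.07 and 19.6 in prefrontal cortex, with Hbb 7.51-fold and 5.48-fold higher in the depressive pools. That of 8 pituitary genes was 0.718 in control and 0.394 in depressive cerebellum and 0.446 and 0.423 in prefrontal cortex, and 4 of the 8 were not well above background in depressive cerebellum. The limma fit held only genes well above background on all 4 arrays. In cerebellum 3 of the 8 pituitary genes were at least 2-fold lower in the depressive pool, beside 1.10% of all genes in either direction. Lowest was Gh1, outside the naming rule and named after its values were seen. It read 882.2 in control and 7.1 in depressive cerebellum (log2 bound -5.98). The part of the red cell and pituitary genes in the peptide values was not tested.

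Receptors and processing genes showed no state difference of 2-fold either. The 17 receptors measured in cerebellum had a median of -0.05 and the 18 in prefrontal cortex one of 0.07. The processing genes ranged from -0.27 to 0.17 in cerebellum and from -0.24 to 0.16 in prefrontal cortex. In the limma fit none of the 13 genes of either list passed for state. An unadjusted p under 0.05 was found for 1 receptor and 0 processing genes, beside 7.49% of all genes.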

How the data were processed

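Each array is a 1-colour Agilent scan of Cy3-labelled RNA (400 ng) from 4 pooled rats. Per the file headers, the authors' spot intensity values came from Feature Extraction 10.7.1.1 (protocol GE1_107_Sep09, build rn4). The authors also deposited a value table of 23207 probes, linear intensities whose scaling and averaging of spots are not stated; it served to match files and as an alternative. All 4 arrays shared 1 slide, so slide is no batch here.

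Flagged and control spots were left out and spots of a probe averaged; 18355 of 30367 probes were named through RefSeq accessions. The processed intensity minus the array's 75th percentile, in log2, was tested with limma 3.58.1 (R 4.3.3). The same fit was also run on simulated data whose means and variance were taken from these arrays. A gene well above background has at least 50% of its spots so called by the scanner software. The normexp alternative used median signals in place of the planned mean signals, and an offset of 50. Within a state or tissue there is 1 array a group and so no test, only a 2-fold rule. The number of arrays limits the precision.

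All 10 members are described; receptors and processing genes could be named freely, and of other lists the 4 with the largest tissue and 2 with the largest state difference. Members and lists were chosen with earlier results of these data known. Replicate pools were not made, so p-values rest on what the model leaves between 4 pools and on an error shared across genes.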

Additional observations from a re-analysis of the deposited data

Results flagged for a closer look

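For a pair of genes the depressive pool differed from the control pool in opposite directions in the tissues. The state difference of Npy was 0.29 in cerebellum and -0.15 in prefrontal cortex, a gap of 0.43 on the log2 scale (SE 0.03 from repeated spots). That of Pdyn was 0.94 in cerebellum and -0.15 in prefrontal cortex, a gap of 1.09 (SE 0.49), on a dim cerebellar signal. With 1 pool per group the difference between tissues was not tested for either gene.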

How the results depend on the processing

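With the files as linked to the samples, 0 members differed at 2-fold by tissue in either state (9 and 9 as reported), 9 and 9 differed by state (0 and 0 as reported), and limma called 0 members for tissue and 7 for state; the swap of a control and a depressive array of different tissues makes this so by construction. Quantile normalization put 1 member, Pdyn, past 2-fold in the cerebellum state comparison. Leaving out each array in turn kept 7 to 7 members called for tissue. No member's called difference reversed. Among state differences in prefrontal cortex, Nts (-0.04 after normexp) and Cartpt (0.05 with flagged spots kept) changed sign around 0. Under normexp the state fit called 5 genes of 11623, none of them a member. No paired analysis was possible because there is 1 array per group and the labels carry no shared replicate numbers. Dim signals limit Vip, Cort, Pdyn, Nts and Cartpt in cerebellum.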

Other observations

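Of 19 other neuropeptide genes measured, 9 in control and 11 in depressive pools were at least 2-fold lower in cerebellum. At least 2-fold higher in each were 4 (Edn3, Nppc, Npff and Avp). The limma fit called 8 of 14 lower and 4 higher, beside 37.8% of all genes lower and 34.7% higher. Cck, the precursor of cholecystokinin, was 293-fold and 497-fold lower in cerebellum. Tac1, the precursor of substance P, was 60.9-fold and 54.0-fold lower, and Tac3, the precursor of neurokinin B, 27.7-fold and 22.2-fold. Edn3, Nppc, Npff and Avp fall outside the naming rule and were named after their values were seen. No gene of this list reached 2-fold between states in either tissue. The largest state difference of one direction in both tissues, after Cck, was that of Adm, at 0.33 in cerebellum and 0.25 in prefrontal cortex. None of the 14 fitted genes passed the adjusted threshold for state by limma. At an unadjusted p under 0.05 there were 3, beside 7.49% of all genes.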
